A study of Mus musculus with 4 samples.

Results

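The miRNAs described here are the 10 mature miRNAs that come from 5 hairpins, mir-431, mir-433, mir-127, mir-434 and mir-136, which lie antisense to the imprinted gene Rtl1 in the Dlk1-Dio3 region of the mouse. They were chosen by name, as both arms of each hairpin, and make up 10 of the 1915 mature miRNAs listed in the deposited table. MIN6, an insulin-secreting line from a mouse insulinoma, is used as a model of pancreatic beta cells. Small RNA was sequenced from 2 libraries of MIN6 cells and 2 libraries of MIN6-derived exosomes, the small vesicles that cells release into their medium. The line was derived from a transgenic mouse that carries a viral T antigen under the insulin promoter, a background that both groups share. The labels name no agent given to either group, and describe a culture medium with exosome-depleted fetal bovine serum and β-mercaptoethanol. The question behind the sequencing was which miRNAs the exosomes carry that might bear on the differentiation of fibroblasts, and miR-127-5p was among those taken further in the study. The labels do not say whether the libraries of a group came from separate cultures, so that p-values measure the spread between these samples, which may be technical.

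Dlk1-Dio3 is an imprinted region: protein-coding genes such as Dlk1, Rtl1 and Dio3 are expressed from the paternal chromosome, and long noncoding RNAs with many miRNAs and snoRNAs are expressed from the maternal one. Rtl1 is a retrotransposon-derived gene needed for the vessels of the placenta. Its maternal antisense transcript carries these hairpins, and because each miRNA is read from the strand opposite Rtl1, it pairs perfectly with the Rtl1 mRNA and can direct its cleavage. Maternally expressed miRNAs of the human counterpart of this region are known to be abundant in islet beta cells and lower in the islets of donors with type 2 diabetes.

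The mature sequences are shown because perfect pairing to the mRNA of Rtl1 sets these miRNAs apart from most others. The prefix mmu marks mouse, the bases are written 5′ to 3′, and the capitals mark the seed, bases 2 to 8, which leads pairing with target mRNAs. All 10 were matched by name to the RefSeq table of GRCm38.p6, and the sequence in the deposited table was the same for each.
mmu-miR-431-5p: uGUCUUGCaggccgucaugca
mmu-miR-431-3p: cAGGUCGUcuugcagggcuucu
mmu-miR-433-5p: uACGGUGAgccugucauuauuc
mmu-miR-433-3p: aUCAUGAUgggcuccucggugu
mmu-miR-127-5p: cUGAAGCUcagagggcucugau
mmu-miR-127-3p: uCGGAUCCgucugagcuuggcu
mmu-miR-434-5p: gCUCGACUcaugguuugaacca
mmu-miR-434-3p: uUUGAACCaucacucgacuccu
mmu-miR-136-5p: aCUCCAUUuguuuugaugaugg
mmu-miR-136-3p: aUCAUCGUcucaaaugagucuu

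The 10 seeds were all distinct, and none was shared with another mature mouse miRNA of the RefSeq table. The reverse complement of each mature sequence occurred once in the Rtl1 transcript, inside the coding part of its exon 2. Among 141767 GENCODE transcripts none from another gene, miRNA genes aside, held any of the 10 mature sequences themselves. The reverse complements were looked for in the Rtl1 transcript alone, so that perfect pairing to other transcripts was not tested. The hairpin of mir-127 is printed whole, with both mature arms in capitals, because the balance of its arms differed between the groups.
mir-127 hairpin: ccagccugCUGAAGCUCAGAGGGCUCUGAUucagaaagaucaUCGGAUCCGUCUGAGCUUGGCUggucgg

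On GRCm38 the hairpins lie on the plus strand of chromosome 12 within 4942 bases. mir-431 is at chr12:109590447-109590537, mir-433 at chr12:109591715-109591838, mir-127 at chr12:109592846-109592915, mir-434 at chr12:109594506-109594599 and mir-136 at chr12:109595327-109595388. Rtl1 is on the minus strand, at chr12:109589193-109600330, and its coding part, at chr12:109590172-109595403, covers all 5 hairpins. The map of hairpins across this exon also holds mir-432 and, on the minus strand opposite mir-136, mir-3071. Their mature miRNAs, miR-432, miR-3071-5p and miR-3071-3p, had 0 counts in all 4 libraries.

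**Figure D1:**
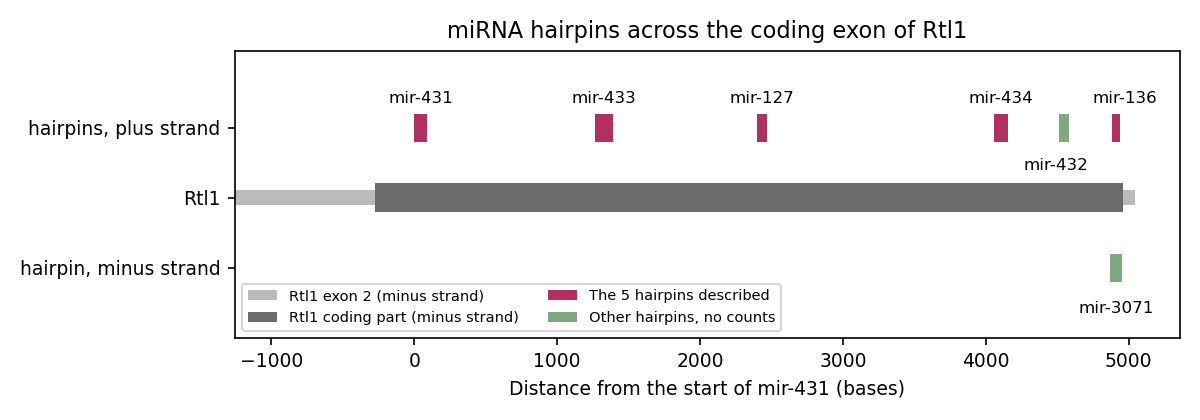
miRNA hairpins across the second exon of Rtl1 on GRCm38, with distance in bases from the start of mir-431 on the x axis and strand on the y axis. The 5 hairpins described (red) lie inside the coding part of Rtl1 (dark grey), and the hairpins mir-432 and mir-3071 (green) gave no counts.

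Depth differed between the groups, with 2930217 and 2564068 mature counts in the cell libraries against 47447 and 31409 in the exosome libraries. A floor of 3 counts, the number that a count of 0 still allows, was worth 1.02 and 1.17 RPM (the count over the sum of mature counts, times 1000000) in cells, and 63.2 and 95.5 RPM in exosomes. An exosome library therefore could not show a miRNA at the low levels that a cell library could. RPM is a share of the mature counts, so that the number of vesicles and the RNA in each cannot be told apart. Each of the 10 miRNAs had a count in some library, with 9 and 7 of them counted in cells and 9 and 4 in exosomes. Only miR-127-3p was above 3 counts in all 4 libraries.

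The most abundant of the 10 in both groups was mmu-miR-127-3p, the 3p arm of the middle hairpin. Its counts were 105 and 22 for the cells against 35 and 13 for the exosomes. In RPM these were 35.8 and 8.58 in cells and 738 and 414 in exosomes, or 22.2 ± 19.3 against 576 ± 229 (SD, n = 2 each). Both exosome libraries were above both cell libraries, an order that 33.3% of the 438 miRNAs with enough counts for a test had in TMM-scaled levels. Ordered by abundance within its library, miR-127-3p stood at place 230 of 905 and 330 of 873 for cells, against 94 of 538 and 107 of 437 for exosomes.

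The other arm, mmu-miR-127-5p, was among the scarcest of the set in cells and second to miR-127-3p by mean RPM in exosomes. The cell libraries held 2 and 1 counts of it, both below the floor, and the exosome libraries 13 and 4. Its levels were 0.683 and 0.390 RPM in cells and 274 and 127 RPM in exosomes, again without overlap. By abundance it stood at place 669 and 693 among cell miRNAs and at 182 and 172 among exosome miRNAs.

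mmu-miR-434-3p was higher in the exosomes in RPM, but unevenly so. It had 8 and 2 counts in cells (2.73 and 0.780 RPM) and 16 and 1 in exosomes (337.2 and 31.8 RPM). The second exosome library rested on that 1 count, under its floor, while still above both cell libraries. Its partner miR-434-5p had 10 and 6 counts in cells (3.41 and 2.34 RPM) and 4 and 0 in exosomes (84.3 and 0 RPM), so that its groups overlapped.

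mmu-miR-433-3p, from a hairpin best known in neurons, had 14 and 0 counts in cells (4.78 and 0 RPM) and 10 and 2 in exosomes (211 and 63.7 RPM). The exosome libraries were the higher ones, but the 2 counts of the second were under its floor, and the cell libraries differed from each other in whether it was counted at all. miR-433-5p was close to absent, with 2 and 0 counts in cells and 1 and 0 in exosomes.

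The mir-136 hairpin behaved differently from mir-127. mmu-miR-136-5p had 34 and 16 counts in cells (11.6 and 6.24 RPM), which made it second to miR-127-3p there, and 7 and 0 in exosomes (148 and 0 RPM). The exosome libraries thus lay on both sides of the cell libraries. miR-136-3p was counted in cells alone, with 10 and 3 counts (3.41 and 1.17 RPM) against 0 and 0. At an unchanged level only 0.474 counts would have been seen over both exosome libraries, so that a fall of miR-136-3p was not detectable at this depth.

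Both arms of mir-431, a hairpin studied in muscle regeneration, were at or under the floor in each library. miR-431-5p had 1 and 0 counts in cells and 2 and 0 in exosomes, and miR-431-3p had 0 and 1 in cells and 2 and 0 in exosomes. No fold is given for these or for miR-433-5p, because both groups were at or under the floor.

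**Figure D2:**
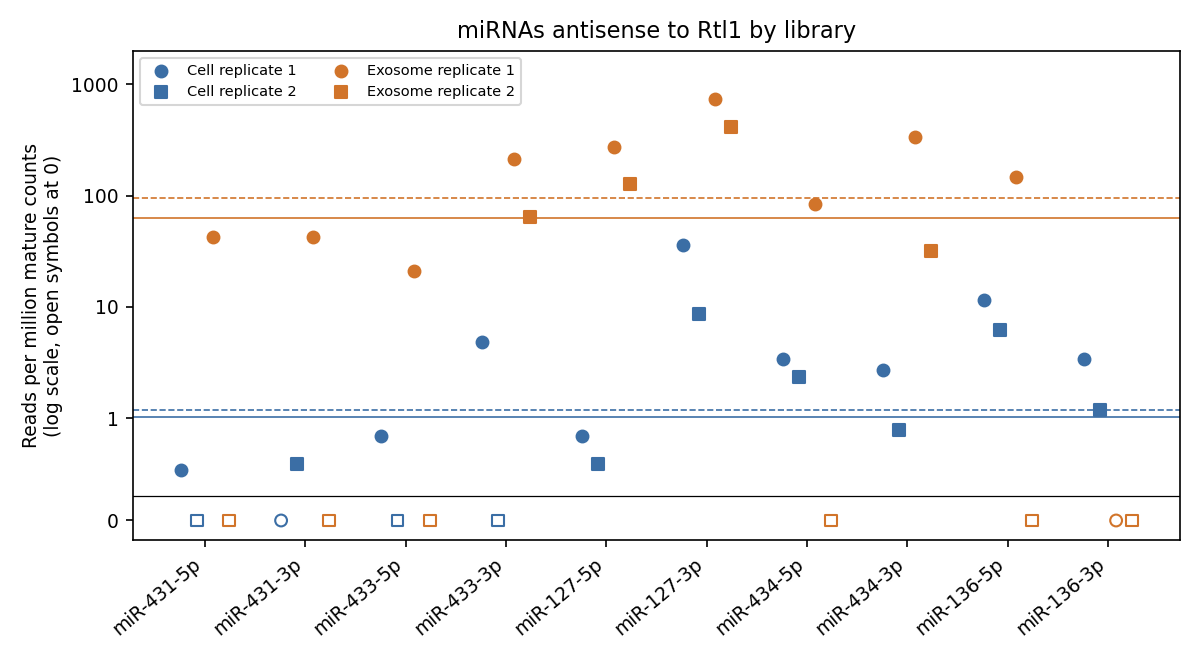
RPM of the 10 miRNAs in each library on a log axis, with cells in blue and exosomes in orange, circles for replicate 1 and squares for replicate 2, and horizontal lines at the floor of 3 counts of each library. miR-127-3p is above the floor in all 4 libraries, and the 0 values lie at the bottom of the axis.

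The difference between exosomes and cells was then tested over the 438 miRNAs with enough counts, by the quasi-likelihood test of edgeR with TMM scaling and Benjamini-Hochberg adjustment over all of them. The filter kept 5 of the 10 miRNAs, and left out miR-431-5p, miR-431-3p, miR-433-5p, miR-434-5p and miR-136-3p. It required 7.66 RPM in any 2 libraries, which miR-127-5p, miR-434-3p and miR-433-3p reached in the exosome libraries alone, where 1 count is worth more than that. These 3 could be tested only because they were higher in exosomes, and miR-136-3p, counted in cells alone, was left out, so that the direction of the calls among the 5 is no result. miR-127-3p reached that level in all 4 libraries and miR-136-5p in 1 library of each group. miR-127-5p, miR-127-3p and miR-434-3p were called higher at an adjusted p under 0.05 and none of the 5 lower, at an adjusted or unadjusted p under 0.05, beside 23.7% of all tested miRNAs called higher and 29.5% lower. Without the filter the same test called 2 of the 10 higher (miR-127-5p and miR-434-3p) and 0 lower, against 9.45% of 1101 miRNAs called higher. A positive log2 fold change was found for 9 of the 10, against 349 of the 1101, but these signs are no result. miR-431-5p, miR-431-3p and miR-433-5p held only 2, 2 and 1 exosome counts, and each exosome count is worth far more RPM than a cell count. The count was 4 of 5 with each other scaling or test, miR-433-3p being added, beside 26.0% of all miRNAs called higher with RLE scaling, 31.3% with library size alone, 29.5% with the upper quartile and 26.7% with DESeq2. For edgeR's exactTest the background was 26.5% by adjusted p and 27.4% at the study's threshold of fold and unadjusted p. With at least 10 counts required in every library only miR-127-3p was tested, and it was called, beside 37.0% of 100 miRNAs. Of the 10, 2 were called without cell replicate 1, 1 without cell replicate 2, 1 without exosome replicate 1 and 6 without exosome replicate 2, beside 21.4%, 19.2%, 17.7% and 23.3% of the miRNAs tested.

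miR-127-5p rose most, with a log2 fold change of 7.02 ± 0.56 (approximate SE) and an adjusted p of 0.00650 in edgeR's quasi-likelihood test. The approximate SE, here and below, is the log2 fold change over √F of that test. For miR-127-5p it is narrower than the counting error of its few counts. That value depends on the prior count, because the cell libraries held 3 counts in all. The ratio of pooled counts, 17 in exosomes to 3 in cells, scaled by TMM, was 155 with an exact 95% interval of 44.9 to 827. This interval, like the others given here, covers counting error only, and with library size alone the ratio was 397 (115 to 2114). The log2 fold change was 6.52 without cell replicate 1, 6.12 without cell replicate 2 and 7.42 without exosome replicate 2. Without exosome replicate 1 miR-127-5p was not tested. It passed the filter through the exosome libraries alone, so that a fold or call that holds wherever it passed is no result. Without the filter, where it was called too, its log2 fold change was 5.72.

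For miR-127-3p the log2 fold change was 3.39 ± 0.80 with an adjusted p of 0.0296 in edgeR's quasi-likelihood test. In TMM-normalized CPM (the same unit on TMM-scaled library sizes) the means were 34.2 ± 28.5 in cells and 358 ± 77.7 in exosomes (SD, n = 2 each), and the pooled ratio was 10.4 with an interval of 7.27 to 14.5. The call was lost without cell replicate 1, where edgeR's adjusted p was 0.0970, and without cell replicate 2, where it was 0.304 at a log2 fold change of 2.17. It was also lost when no filter was used, with a log2 fold change of 2.03 and an adjusted p of 0.0914 by edgeR.

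miR-434-3p had a log2 fold change of 5.37 ± 1.04 and an adjusted p of 0.0201 by edgeR's quasi-likelihood test. Pooled counts gave a ratio of 46.6 with an interval of 20.1 to 114. Without cell replicate 2 edgeR gave an adjusted p of 0.102 at a log2 fold change of 4.08, and without exosome replicate 1 miR-434-3p was not tested.

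miR-433-3p did not pass the adjusted threshold in this fit, with a log2 fold change of 4.50 ± 1.43 and an adjusted p of 0.0569 by edgeR. Its pooled ratio was 23.5, with an interval of 9.92 to 54.7. It passed the threshold with each of the 3 other scalings and with DESeq2, whose log2 fold change was 4.45 with an adjusted p of 0.0181. miR-136-5p had a log2 fold change of 1.87 ± 1.04 with an adjusted p of 0.187 by edgeR, and a pooled ratio of 3.84 with an interval of 1.47 to 8.50. Among the untested miRNAs, miR-434-5p had a pooled ratio of 6.85 with an interval of 1.67 to 21.2. Over all 438 miRNAs the median log2 fold change came to -0.75 with TMM, -0.83 with RLE scaling, -0.07 with upper-quartile scaling and 0.61 with library size alone. With library size alone the pooled ratios were larger, at 26.5 for miR-127-3p, 119 for miR-434-3p, 60.1 for miR-433-3p, 9.81 for miR-136-5p and 17.5 for miR-434-5p.

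**Figure D3:**
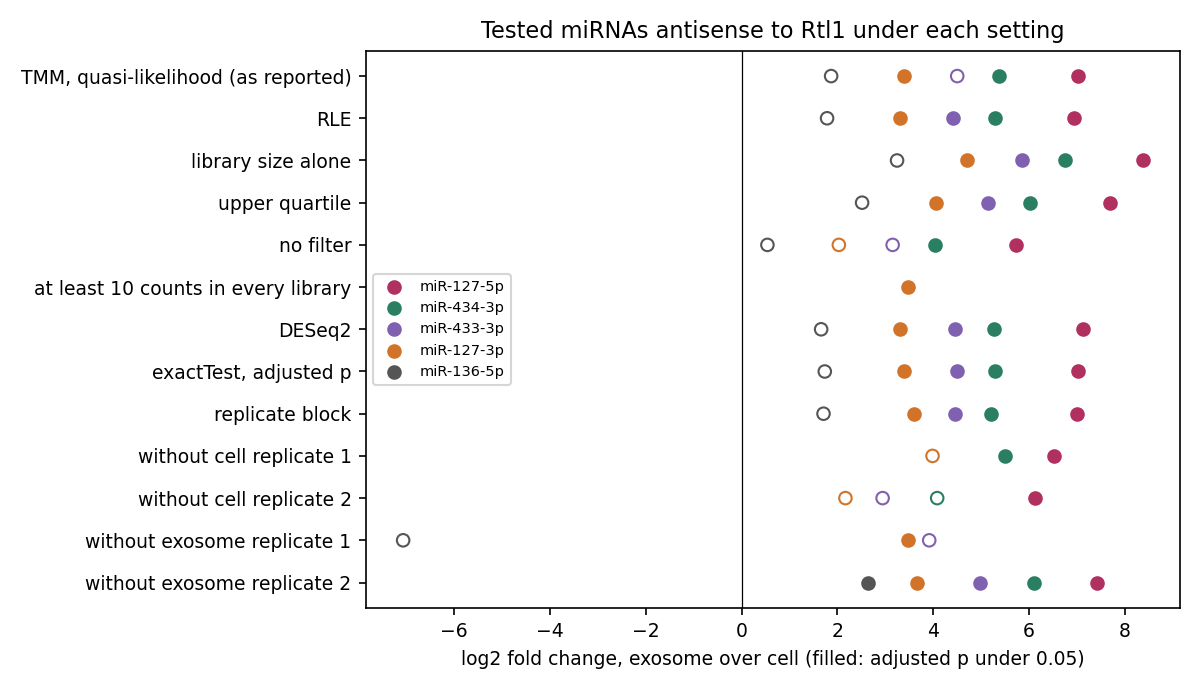
log2 fold change, exosome over cell, of the 5 tested miRNAs under each setting of the fit, with the setting on the y axis, filled points where the adjusted p was under 0.05 and open points where it was not. miR-127-5p is shown only where no filter was used or where it passed the filter, which it did through the exosome libraries alone. miR-136-5p turns from 1.87 to -7.06 when exosome replicate 1 is left out, which leaves the exosomes with 0 counts.

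The balance of the arms of mir-127 also differed between cells and exosomes, a measure within 1 hairpin that does not depend on how the libraries are scaled. In cells miR-127-5p made up 2 of 107 arm counts (1.87%, 95% Wilson interval 0.514 to 6.56) and 1 of 23 (4.35%, 0.772 to 20.99). In exosomes it made up 13 of 48 (27.1%, 16.6 to 41.0) and 4 of 17 (23.5%, 9.56 to 47.3). Both exosome libraries were above both cell libraries, the intervals of the replicate 1 libraries did not overlap, and those of the replicate 2 libraries did. Pooled, the share was 2.31% (0.788 to 6.57) of 130 counts in cells and 26.2% (17.02 to 37.95) of 65 in exosomes. With 2 libraries a group, no exact permutation p can be below 0.333, and the difference in share was given no test. No count on the mir-127 hairpin fell outside its arms in any library.

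Such a shift towards the minor arm was not the rule in these libraries. Of 62 hairpins with at least 10 counts over both arms in every library, the minor arm was higher in both exosome libraries than in both cell libraries in 20, or 32.3%. Its mean share rose in 31 of the 62, with a median change of 0.0116 percentage points. mir-127, whose minor arm rose by 22.2 points between the means of the libraries, was at place 8 of 62.

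mir-434 moved towards the other arm. miR-434-5p held 10 of 18 arm counts (55.6%, 33.7 to 75.4) and 6 of 8 (75.0%, 40.9 to 92.9) in cells, and 4 of 20 (20%, 8.07 to 41.6) and 0 of 1 in exosomes. The exosome libraries were below the cell libraries, though the second of them held a single count and the intervals of the replicate 1 libraries overlapped. Both exosome libraries were on 1 side of both cell libraries in 67.7% of the 62 hairpins, of which mir-434 was not one for lack of counts. Pooled shares were 61.5% (42.5 to 77.6) and 19.05% (7.67 to 40.001).

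For mir-136 the 5p arm led in each library that had counts. miR-136-5p held 34 of 44 arm counts (77.3%, 63.0 to 87.2) and 16 of 19 (84.2%, 62.4 to 94.5) in cells, and 7 of 7 in exosome replicate 1, whose interval reached down to 64.6%. These intervals overlapped. mir-433 kept mostly its 3p arm, with a 5p share of 12.5% of 16 counts in the cell library that had any and 9.09% of 11 in exosome replicate 1. mir-431, with at most 4 counts in a library, had too few to compare its arms.

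**Figure D4:**
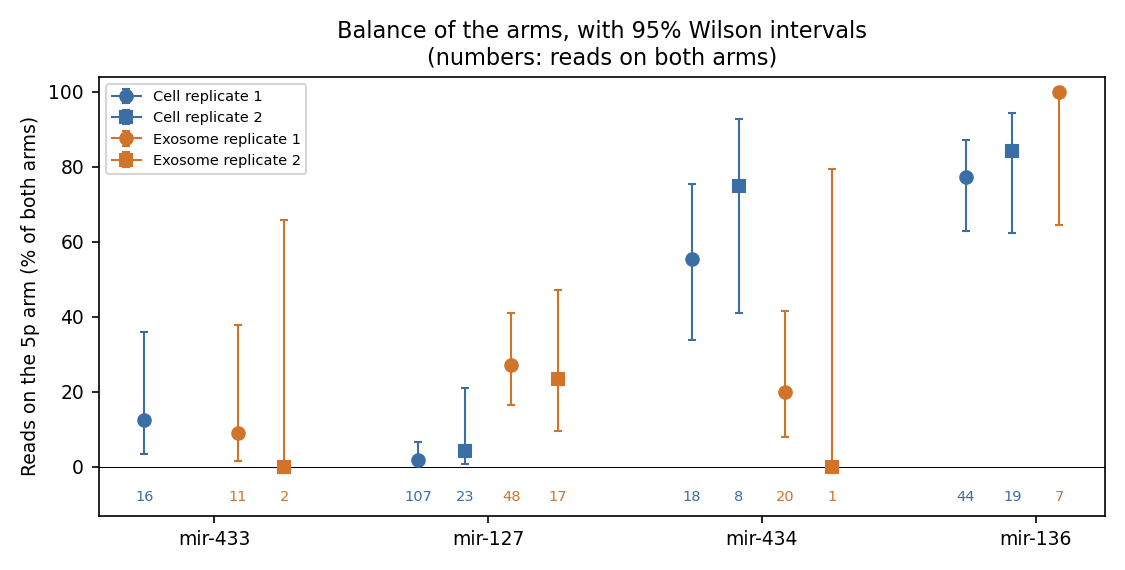
Share of the 5p arm in the arm counts of each hairpin, in percent, in each library with its 95% Wilson interval (cells blue, exosomes orange). The exosome libraries lie at 27.1% and 23.5% for mir-127, against 1.87% and 4.35% in cells, and below the cell libraries for mir-434, and the numbers under the points are the arm counts.

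Summed, the 10 miRNAs were a small part of the mature counts. They held 186 counts (0.00635%, 95% Wilson interval 0.00550 to 0.00733) and 51 counts (0.00199%, 0.00151 to 0.00261) in the cell libraries, and 90 (0.190%, 0.154 to 0.233) and 20 (0.0637%, 0.0412 to 0.0983) in the exosome libraries. The group means were 0.00417% ± 0.00308 and 0.127% ± 0.0891 (SD, n = 2 each), a ratio of 30.4. Replicate 1 was 3.19 times replicate 2 in cells and 2.98 times in exosomes. In both groups the replicates differed by more than their counting intervals. miR-127-3p alone gave 56.5% and 43.1% of the summed counts in cells and 38.9% and 65% in exosomes.

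The other miRNAs of Dlk1-Dio3, 99 in the table, moved in the same way between replicates. They come from hairpins on both sides of Rtl1, and from mir-432 and mir-3071 inside it, which had 0 counts. They summed to 0.0802% and 0.0251% of the mature counts in cells, with replicate 1 at 3.20 times replicate 2, and to 1.71% and 0.264% in exosomes, where the ratio was 6.45. Of the 10 miRNAs, all 6 with 10 or more counts over the cell libraries had a higher RPM in cell replicate 1, against 288 of 533 miRNAs of any kind (54.0%). In exosomes this held for 4 of 4, against 160 of 233 (68.7%). Replicate numbers carry no order, and these values describe single libraries. What sets replicate 1 apart was not tested.

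As a share of all Dlk1-Dio3 counts, the Rtl1-antisense miRNAs were almost equal in the cell libraries, at 7.33% (6.38 to 8.41) and 7.35% (5.63 to 9.53). In exosomes they were 10.01% (8.22 to 12.1) and 19.4% (12.9 to 28.1). Both exosome values were above both cell values, but the interval of exosome replicate 1 overlapped those of the cells.

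**Figure D5:**
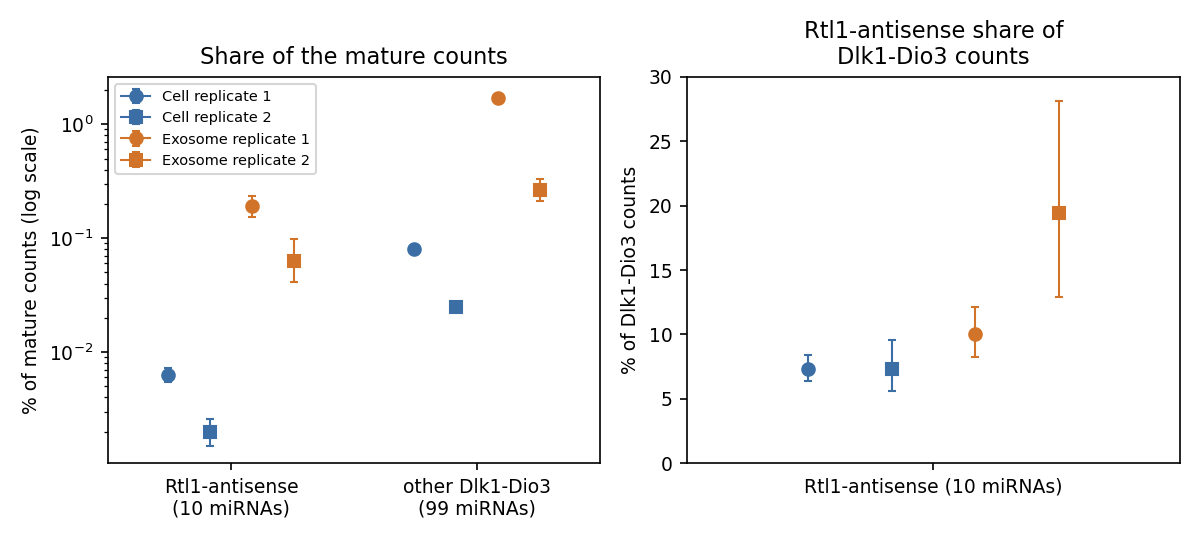
Left, the share of the mature counts held by the 10 Rtl1-antisense miRNAs and by the other Dlk1-Dio3 miRNAs in each library, in percent on a log axis, and right, the share of all Dlk1-Dio3 counts held by the 10, in percent, both with 95% Wilson intervals. Replicate 1 is the higher library in both groups on the left, and the cell libraries lie at 7.33% and 7.35% on the right.

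Of the 99 other Dlk1-Dio3 miRNAs, 74 had a count and 33 were tested, of which 11 rose in exosomes and 0 fell by edgeR's quasi-likelihood test. At an unadjusted p under 0.05 there were 17, of which 0 fell. The background is the 23.7% called higher and the 29.5% called lower among all tested miRNAs. Of the 33, 9 had passed the filter through the exosome libraries alone and 0 through the cell libraries alone, so that the absence of falls is no result. Without the filter the median log2 fold change was 2.09 for the 74 with a count. It was 2.69 for the 10 Rtl1-antisense miRNAs and -1.67 over all 1101. These medians are no result. Each exosome count is worth far more RPM than a cell count, so that a lone exosome count can give a positive fold. Values of miRNAs near 0 counts also depend on the prior count. Leaving out cell replicate 1 lowered the count of 11 to 5, leaving out cell replicate 2 to 1 and leaving out exosome replicate 1 to 2, while leaving out exosome replicate 2 raised it to 21. miR-134-5p, which regulates dendritic spines in neurons, had 35 and 12 counts in cells and 47 and 8 in exosomes. Its log2 fold change was 4.87 ± 0.80 with an adjusted p of 0.0139 by edgeR. miR-667-3p had 20 and 3 counts in cells and 22 and 4 in exosomes, with a log2 fold change of 4.87 ± 0.97 and an adjusted p of 0.0205 by edgeR.

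The miRNAs nearest in profile to miR-127-3p, by Euclidean distance in log2 TMM-normalized CPM over the 4 libraries, were miR-143-3p at 1.52, miR-344g-3p at 1.54 and miR-134-5p at 1.83. miR-143-3p, a miRNA of smooth muscle and fibroblasts, had 37 and 21 counts in cells and 39 and 19 in exosomes. miR-134-5p is itself a Dlk1-Dio3 miRNA.

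Of 11 markers of other cell types, 10 were tested and 9 were called higher in exosomes, as miR-127-5p, miR-127-3p and miR-434-3p were. The 5 beta-cell markers (miR-375-3p, miR-7a-5p, miR-184-3p, miR-182-5p and miR-200c-3p) were counted in every library and summed to 49659 to 50016 RPM in cells and 13436 to 29380 in exosomes. The TMM-scaled fit called 0 higher and 3 lower. In RPM only miR-7a-5p and miR-200c-3p lay lower in both exosome libraries. miR-375-3p, called lower, overlapped in RPM (9113 and 9881 in cells, 10686 and 7068 in exosomes). Calls of lower depend on scaling, with 29.5% of all tested miRNAs with TMM and 6.85% with library size alone. The 5 blood markers summed to 1.37 to 1.56 RPM in cells, where miR-451a, miR-144-3p and miR-142a-3p were at 0, and to 1401 to 6491 RPM in exosomes, and all 4 that were tested rose. The 4 markers of fibroblasts and mesenchyme summed to 10.1 to 14.3 RPM in cells and 1751 to 1770 in exosomes, and 4 of 4 rose. The 4 tested blood markers, miR-199a-3p, miR-214-3p and miR-145a-5p were under the filter's 7.66 RPM in both cell libraries. They could be tested only because they were higher in exosomes, so that the direction of their calls is no result. Of all tested miRNAs, 23.7% were called higher and 29.5% lower. The 2 liver markers summed to 112 to 129 and 1939 to 2069 RPM, and 1 of 2 rose, miR-122-5p. The other, miR-192-5p, had a log2 fold change of -0.61 and was not called. The part of these other markers in the rise of miR-127-5p, miR-127-3p and miR-434-3p was not tested.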

How the data were processed

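Small RNA of MIN6 cells and MIN6-derived exosomes (n = 2 libraries each) was isolated, per the labels, with the miRNeasy Serum/Plasma kit, polyadenylated and made into libraries with the SMARTer smRNA-Seq kit. For its qRT-PCR the paper names that kit for exosomes and the mirVana kit for cells. It checked exosome libraries on a Bioanalyzer and cell libraries on a Tape Station, so that handling may differ with the group. The submitters' processing notes name cutadapt, Bowtie, Bowtie2, STAR, RSEM, edgeR and the build mm10, without roles. The authors deposited whole-number read counts per mature miRNA, used here without change, and RPM values, found to equal each count over its library's sum. The authors also deposited read counts per hairpin and the part on neither arm. Another 8 columns of arm counts were not used.

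Exosomes were compared with cells by edgeR 4.0.16 (R 4.3.3) with filterByExpr at a minimum count of 10, which left 438 of 1101 miRNAs with a count, TMM factors (0.660 and 0.612 in cells, 1.80 and 1.38 in exosomes), the quasi-likelihood test and Benjamini-Hochberg adjustment at 0.05. Each approximate standard error is the size of the fold change (log2) divided by √F. Shares have 95% Wilson intervals, and pooled ratios exact conditional intervals. The 2 miRNAs miR-299a and miR-299b with equal counts were summed once. The floor was 3 counts per library. The fit was tested on simulated data. Alternatives were RLE, upper-quartile and library-size scaling, DESeq2 1.42.0, edgeR's exactTest, other filters, the replicate block, shares without the 5 leading miRNAs per group and each library left out.

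The miRNAs, the Dlk1-Dio3 list and the marker lists were chosen with earlier results of these data known. Named are the 10 miRNAs, others overlapping Rtl1, called Dlk1-Dio3 miRNAs with 4 or more counts in both exosome libraries (at most 4), the 3 nearest in profile to the member with the highest mean CPM in cells, and markers. Positions and transcripts are from GENCODE vM21 on GRCm38.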

Additional observations from a re-analysis of the deposited data

How the results depend on the processing

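Depth is the main limit: 5 of the 10 miRNAs were too scarce to test, and exosome levels under 63.2 to 95.5 RPM could not be told from 0. Where a library is left out, the lone library of its group is assumed to vary like the other group. Of 131 values recomputed under alternatives, 100 were classed as the same. For folds this meant the same direction and side of the threshold, and for shares a value within their spread. Counts of called miRNAs could be classed as the same although some miRNAs crossed the threshold. Examples with RLE scaling are 3 of the 10 becoming 4, and 11 other Dlk1-Dio3 miRNAs becoming 16, beside 23.7% of all tested miRNAs becoming 26.0%. The counts called lower, which stayed at 0, are among the 100. The cause of the other changes was not tested, except where fewer miRNAs were tested.

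Of the 10 miRNAs, 3 were called higher, 4 with RLE, upper-quartile or library-size scaling, DESeq2 and exactTest, 2 without a filter, and 1 with at least 10 counts in every library, where miR-127-3p was the only 1 of the 10 tested. Leaving out 1 library left 3 to 6 of the 10 tested. The 11 other Dlk1-Dio3 miRNAs called, of 33 tested, became 18 with library size alone, 20 with the upper quartile and 18 with DESeq2. The share of all tested miRNAs called higher also moved with the setting. It was 23.7% with TMM, 26.0% with RLE, 31.3% with library size alone, 29.5% with the upper quartile and 26.7% with DESeq2. Without a filter it was 9.45%. They became 19 with exactTest at the threshold of the study. With at least 10 counts in every library only 1 of them was tested, and it was called, beside 37.0% of 100 miRNAs. Without 1 library 18 to 35 were tested. None of the 10 or of the other Dlk1-Dio3 miRNAs was called lower in any setting.

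miR-433-3p passed the threshold with RLE (log2 fold change 4.42), library size alone (5.84), the upper quartile (5.14), DESeq2 (4.45) and exactTest at the threshold of the study or by adjusted p (4.49), and ranged from 2.94 to 4.98 without 1 library. miR-127-3p missed it without a filter (2.03) and ranged from 2.17 to 3.98 without 1 library. Without 1 library miR-434-3p ranged from 4.08 to 6.11 and miR-127-5p from 6.12 to 7.42. Over the other settings miR-434-3p ranged from 4.04 without a filter to 6.75 with library size alone, and miR-127-5p from 5.72 to 8.37. For miR-136-5p the range without 1 library was -7.06 to 2.64, the negative value without exosome replicate 1, where it rests on 0 counts, and its value was 3.24 with library size alone.

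The 5p share of mir-127 rose by 23.8 percentage points in pooled counts and by 21.2 to 24.8 without 1 library. For mir-433 the pooled difference was -4.81 points and ranged from -12.5 to -3.41. Without the 5 most abundant miRNAs of each group, the summed share was 0.00956% in cells and 0.276% in exosomes.

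With the replicate number as a block, 4 of the 10 miRNAs (5 tested) and 21 other Dlk1-Dio3 miRNAs (33 tested) were called higher, beside 26.7% of all 438, and miR-433-3p had a log2 fold change of 4.45. The correlation of same-numbered deviations over 438 miRNAs was 0.194 with 2 pairs, and the samples share only a number. Over the 231 miRNAs with at least 10 exosome counts it was 0.297.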
